A study of Mus musculus with 12 samples.

Results

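The 10 genes described here are transcription factors of the immediate early response: the AP-1 genes Fos, Fosb, Fosl2, Jun and Junb, the zinc finger genes Egr1 and Egr2, and the orphan nuclear receptor genes Nr4a1, Nr4a2 and Nr4a3. They were taken by symbol from a count table of 55414 gene identifiers, where all 10 were found, and all 10 were among the 14435 genes with enough counts to be tested. The cells were 3T3-L1, a mouse line of preadipocytes (mesenchymal stem cells in the labels) that turns into fat cells when given hormones, and their polyadenylated RNA was sequenced. The series title places a complex of FHL2, a LIM-domain cofactor, and the transcription factor NFAT5 in early adipogenesis. There were 4 groups of 3 libraries. Control day 0 and control day 2 cells overexpressed CTRL-GFP, and FHL2 day 0 and FHL2 day 2 cells overexpressed FHL2-GFP. Day 0 cells were post-confluent and not yet induced. Day 2 cells had been kept from day 0 with isobutylmethylxanthine at 0.5 mM, dexamethasone at 1 uM and insulin at 170 nM, in medium with 10% FBS. No promoter of the constructs, clone or passage is given in the labels. The design holds no uninduced culture at day 2, so induction, time in culture and any handling shared by the libraries of a day cannot be told apart.

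Immediate early genes are transcribed without new protein synthesis when a growth factor, cAMP or stress signal reaches a cell, and their transcripts are usually short-lived. FOS proteins pair with JUN proteins to form AP-1, EGR proteins bind GC-rich sites and are held back by the NAB co-repressors, and the NR4A receptors bind DNA without a known hormone, NR4A1 and NR4A2 also in pairs with retinoid X receptors. Dexamethasone acts through the glucocorticoid receptor. Isobutylmethylxanthine blocks the phosphodiesterases that break down cAMP, and cAMP activates CREB, a factor that binds the cAMP response element found in many immediate early promoters. In preadipocytes EGR2 is known as an early promoter of adipogenesis and the AP-1 factors as early regulators of the program.

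The 250 bases before the start sites of the 3 NR4A genes, which did not all have the same course, and of Fosl2, Junb and Fos for comparison are shown with the half-site of the cAMP response element, TGACG or its reverse complement CGTCA, in capitals. The sequences are 5′ to 3′ on the strand of the gene, from RefSeq on GRCm38.p6, which is not the GRCm39 build of the counts.
Nr4a1, chr15:101266596-101266845, plus strand: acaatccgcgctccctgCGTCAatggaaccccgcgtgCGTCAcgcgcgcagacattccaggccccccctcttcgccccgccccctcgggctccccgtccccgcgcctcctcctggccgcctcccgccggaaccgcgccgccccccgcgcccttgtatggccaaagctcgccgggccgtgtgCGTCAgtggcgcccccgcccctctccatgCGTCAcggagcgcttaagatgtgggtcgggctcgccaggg
Nr4a2, chr2:57124004-57124253, minus strand: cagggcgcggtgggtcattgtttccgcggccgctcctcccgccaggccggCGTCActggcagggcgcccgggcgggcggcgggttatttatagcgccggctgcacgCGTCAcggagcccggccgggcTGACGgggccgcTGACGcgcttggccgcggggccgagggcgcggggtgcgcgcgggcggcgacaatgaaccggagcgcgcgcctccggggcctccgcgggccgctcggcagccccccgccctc
Nr4a3, chr4:48045055-48045304, plus strand: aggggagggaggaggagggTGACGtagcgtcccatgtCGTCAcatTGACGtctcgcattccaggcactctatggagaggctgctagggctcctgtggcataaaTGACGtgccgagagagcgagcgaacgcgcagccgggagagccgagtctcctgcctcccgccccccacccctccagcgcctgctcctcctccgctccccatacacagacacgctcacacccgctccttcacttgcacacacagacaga
Fosl2, chr5:32136222-32136471, plus strand: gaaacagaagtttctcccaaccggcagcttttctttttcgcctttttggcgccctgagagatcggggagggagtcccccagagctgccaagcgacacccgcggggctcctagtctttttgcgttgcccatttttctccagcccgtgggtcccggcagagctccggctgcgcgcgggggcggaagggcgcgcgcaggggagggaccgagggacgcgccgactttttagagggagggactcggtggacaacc
Junb, chr8:84978749-84978998, minus strand: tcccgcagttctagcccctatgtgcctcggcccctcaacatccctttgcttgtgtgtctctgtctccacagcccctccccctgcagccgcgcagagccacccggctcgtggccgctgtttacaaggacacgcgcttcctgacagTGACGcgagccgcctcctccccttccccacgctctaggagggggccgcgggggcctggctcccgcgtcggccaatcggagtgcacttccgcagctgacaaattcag
Fos, chr12:85473640-85473889, plus strand: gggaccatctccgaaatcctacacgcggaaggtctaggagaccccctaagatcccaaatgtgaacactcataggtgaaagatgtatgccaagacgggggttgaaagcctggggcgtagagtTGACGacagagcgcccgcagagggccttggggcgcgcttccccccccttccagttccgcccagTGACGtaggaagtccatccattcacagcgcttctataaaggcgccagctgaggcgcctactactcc
Start site windows from RefSeq ran from 250 bases before to 50 after the start. They were examined for 9 of the 10 genes, 13 windows in all, since Egr2 had 5. Egr1 was left out of the search, so the matches given here do not cover it. Each NR4A window held 4 half-sites. Fos held 2, Junb and Fosb held 1, and Fosl2 and Jun held 0. In Egr2, 3 of the 5 windows held 2, which were the same 2 sites because these windows overlap. Over all 32851 windows of the RefSeq table, 20.8% held at least 1 half-site and 0.231% held 4 or more. The full element TGACGTCA, found in 1.79% of all windows on either strand, was in none of the 13. The AP-1 site TGACTCA (5.2% of all windows) and the NGFI-B element AAAGGTCA bound by NR4A monomers (1.51%) were also in none. The EGR site GCGNGGGCG (5.55%) was in the windows of Nr4a1, Nr4a2, Fosl2 and Fosb, and the CArG box of the serum response factor (1.63%) was in 4 of the 5 Egr2 windows, 3 of which overlap and share the match. These are letter matches in short windows and say nothing about binding.

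Libraries held 10047708 to 21872139 counts. A count was seen for 17977 to 18811 genes per library at day 0 and for 12689 to 16131 at day 2, with the fewest in control day 2 replicate 3 and in FHL2 day 2 replicates 1 and 2. The day 2 libraries also varied more among themselves (biological coefficient of variation 0.463, against 0.121 at day 0). All 7 preadipocyte and fibroblast markers were present, with a summed level of 16675 to 20633 CPM (counts-per-million values after TMM scaling, the level used throughout). The macrophage and blood, endothelial, epithelial and muscle lists summed to at most 13.6, 3.62, 1.51 and 5.13 CPM in any library, and Adgre1, Epcam, Krt18, Myod1 and Myog had no count. Of 5 glucocorticoid response genes, 4 rose and 1 fell with induction in each line, and their sum went from 151 to 164 CPM at day 0 to 1146 to 1375 CPM at day 2. Fhl2 itself was not higher in the libraries labelled FHL2: 62.7 ± 4.35 against 61.2 ± 2.40 CPM at day 0 and 17.1 ± 6.49 against 16.3 ± 4.03 CPM at day 2 (SD, n = 3; edgeR adjusted p = 1.00 and 0.914). Dropping the 3 libraries of lowest gene detection gave a day 2 difference in Fhl2 that passed (log2 fold change 0.66, adjusted p = 0.0206). That fit holds 1 FHL2 day 2 library, which is assumed to vary like the other groups. All directions given for FHL2 follow the labels. The labels do not say that the 3 libraries of a group were separate cultures, so a p measures only the spread between libraries. In bulk RNA, fewer cells expressing a gene and less RNA per cell cannot be told apart.

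**Figure D1:**
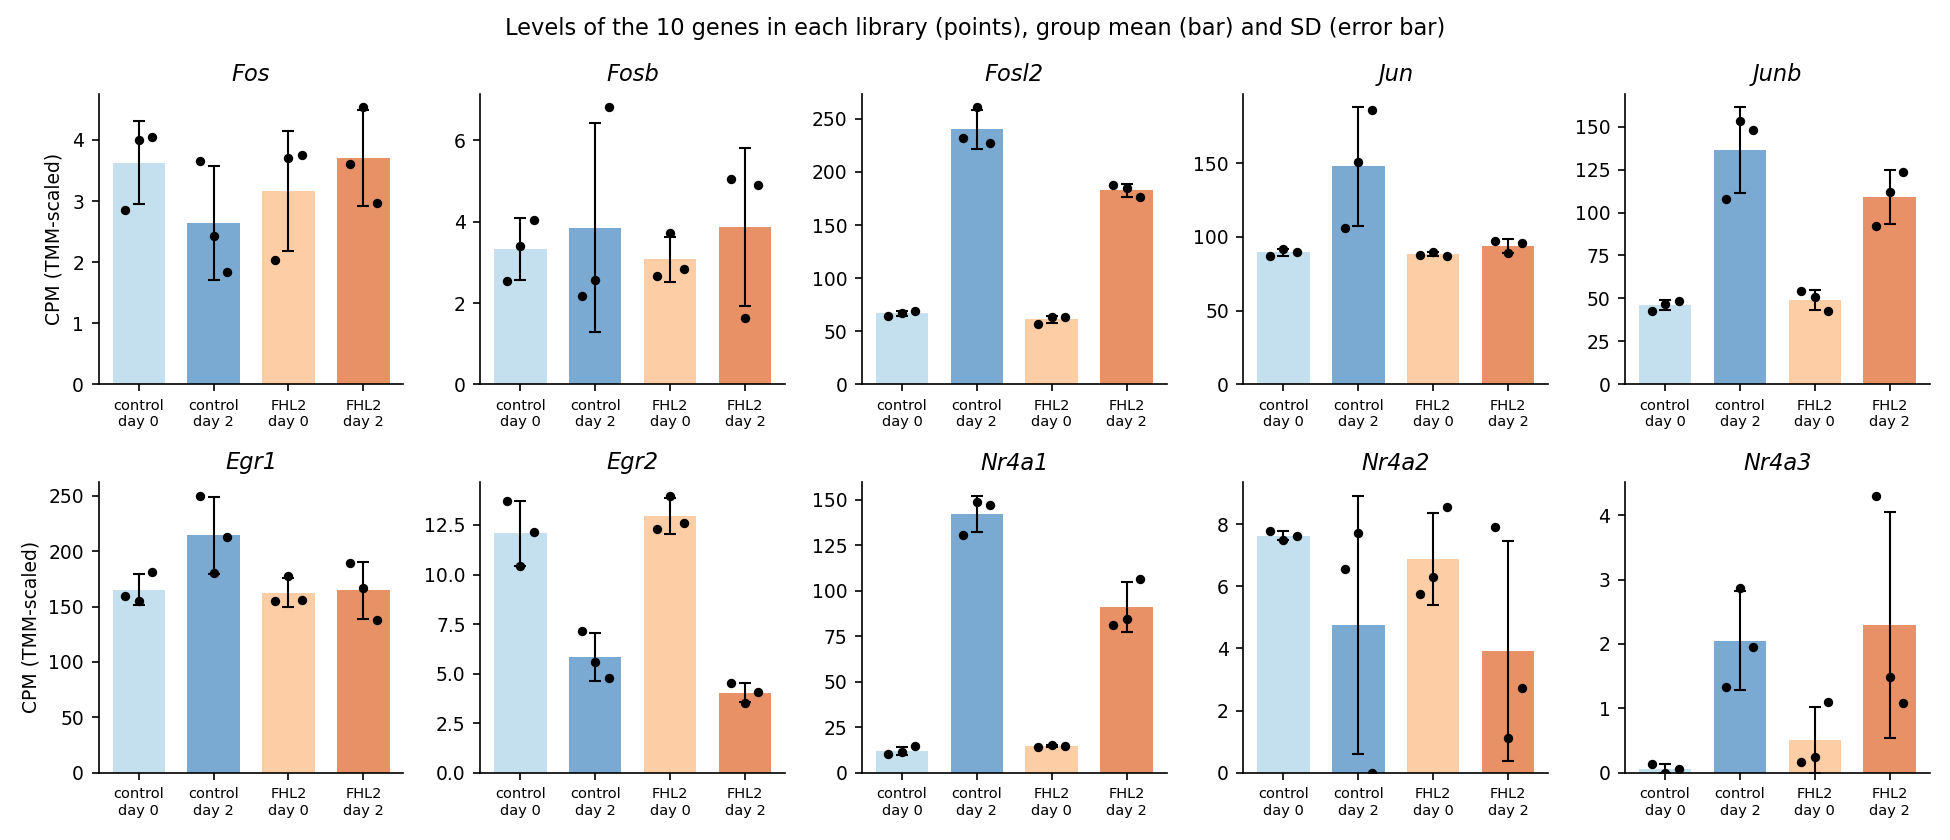
CPM of each of the 10 genes in the 12 libraries (points), with group means (bars) and SD (error bars, n = 3) on axes that start at 0 and differ between genes. Fosl2, Junb and Nr4a1 stood higher at day 2 in both lines, with every control day 2 library above every FHL2 day 2 library for Fosl2 and Nr4a1, and Egr2 stood lower at day 2.

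With induction the 10 genes did not move as a group. In the control line 6 rose (Fosl2, Jun, Junb, Egr1, Nr4a1 and Nr4a3), Egr2 fell, and Fos, Fosb and Nr4a2 did not pass the test at an adjusted p under 0.05. In the FHL2 line Fosl2, Junb and Nr4a1 rose, Egr2 fell, and the other 6 did not pass. Over all tested genes 26.3% were called higher and 30.8% lower in control, and 25.8% and 30.2% in FHL2, so calls in either direction were common. The median log2 fold change was 0.55 over the 10 genes and -0.14 over all genes in control, and 0.28 and -0.11 in FHL2. Both lines were induced, and each was compared with its own day 0 libraries.

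Nr4a1 (ENSMUSG00000023034, also called Nur77), the NR4A receptor most often induced by cAMP and growth factors, had the largest called change among those of the 10 with a mean above 5 CPM. It had 10.1, 11.2 and 14.7 CPM in the control day 0 libraries and 131, 149 and 147 CPM in the control day 2 libraries. The FHL2 libraries had 14.0, 15.3 and 14.6 CPM at day 0 and 81.4, 84.7 and 107 CPM at day 2. Every day 2 library was above every day 0 library, and every control day 2 library was above every FHL2 day 2 library. The rise was 11.9-fold in control (log2 fold change 3.57, SE 0.16, edgeR adjusted p = 8.32e-10) and 6.21-fold in FHL2 (2.64, SE 0.16, adjusted p = 1.20e-08).

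Nr4a3 (ENSMUSG00000028341, NOR-1) was close to the limit of detection before induction. The control day 0 libraries held 3, 0 and 1 counts, and the 0 allows a level of up to 0.162 CPM (3 counts in that library, counting error only). At day 2 the control libraries had 1.34, 2.87 and 1.95 CPM, all above day 0 (log2 fold change 4.77, 95% interval 2.21 to 7.33, adjusted p = 0.00346). With 4 counts behind the day 0 mean, the size of this rise depends on the model. The FHL2 libraries had 0.169, 0.244 and 1.09 CPM at day 0 and 4.30, 1.49 and 1.09 CPM at day 2, where the lowest day 2 value was level with the highest day 0 value. Its change in FHL2 was 2.18 on the log2 scale (95% interval 0.013 to 4.34, adjusted p = 0.0813). It passed without FHL2 day 0 replicate 3, the library with 23 of the 32 day 0 counts (3.42, adjusted p = 0.0361), and also in DESeq2 (adjusted p = 0.0396) and limma-voom (0.0295). The value was lower without FHL2 day 2 replicate 1 (1.37), and 1.13 (adjusted p = 0.409) without the 3 libraries of lowest gene detection, which leaves 1 FHL2 day 2 library.

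Nr4a2 (ENSMUSG00000026826, Nurr1), known for its role in dopamine neurons, gave even day 0 values and scattered day 2 values. Control day 0 libraries had 7.78, 7.50 and 7.60 CPM, and FHL2 day 0 libraries 5.75, 6.30 and 8.54 CPM. Control day 2 libraries had 6.54, 7.72 and 0 CPM, where the 0 allows up to 0.325 CPM, and FHL2 day 2 libraries had 7.91, 1.13 and 2.73 CPM. The 0 and the 1.13 belong to libraries among the 3 with the fewest genes, but so does the 7.91. Neither change passed the test (log2 fold change -0.66, 95% interval -2.54 to 1.21, in control and -0.81, -2.69 to 1.08, in FHL2). The control value was -0.035 without control day 2 replicate 3, the library at 0, and -1.12 without control day 2 replicate 2, and over all alternatives it reached -2.05, in limma-voom. The FHL2 value was -1.79 without FHL2 day 2 replicate 1 and -0.36 without replicate 2. Without those 3 libraries Nr4a2 was called lower with induction in FHL2 (-1.32, adjusted p = 0.00488) and lower in FHL2 than in control at day 2 (-1.41, adjusted p = 0.0271). Both calls rest on 1 FHL2 day 2 library, at 2.73 CPM, with the spread taken from the other groups. The part that low gene detection has in these values was not tested.

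Per kilobase of the longest annotated transcript, the scale on which genes can be compared, the NR4A level went from 6.85 ± 0.908 to 57.4 ± 3.82 CPM per kilobase in control and from 7.74 ± 0.581 to 37.1 ± 4.88 in FHL2. Nr4a1 made up 68.3% of that sum at day 0 and 97.1% at day 2 in control, and 74.2% and 95.8% in FHL2. Nr4a2 held most of the remainder at day 0, 31.6% in control and 24.7% in FHL2.

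Fosl2 (ENSMUSG00000029135, FRA-2), a FOS protein without the strong activation domain of FOS itself, rose in both lines with little spread. Control libraries had 64.3, 67.3 and 69.1 CPM at day 0 and 232, 261 and 228 CPM at day 2. FHL2 libraries had 57.0, 63.1 and 62.9 CPM at day 0 and 188, 185 and 176 CPM at day 2. The days did not overlap in either line, nor did the lines on either day. The rise was 3.59-fold in control (log2 fold change 1.84, SE 0.093, adjusted p = 2.36e-09) and 3.00-fold in FHL2 (1.58, SE 0.092, adjusted p = 1.02e-08).

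Fos (ENSMUSG00000021250), the classic serum-induced gene, stayed low in all groups. It ranged from 2.03 to 4.05 CPM over the day 0 libraries of both lines and from 1.84 to 4.53 CPM over the day 2 libraries, with overlap everywhere. Fosb (ENSMUSG00000003545), a close relative, ranged from 2.53 to 4.05 CPM at day 0 and from 1.63 to 6.82 CPM at day 2, and both of those extremes fell in day 2 libraries with few genes. The intervals of their changes in control were wide, -1.51 to 0.61 for Fos and -1.04 to 1.44 for Fosb on the log2 scale, so a 2-fold change in either direction lay within the interval of Fosb, and a 2-fold fall within that of Fos.

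Jun (ENSMUSG00000052684), the founding AP-1 partner, was very even at day 0, with 86.8, 91.7 and 89.9 CPM in control and 87.6, 89.7 and 87.3 CPM in FHL2. At day 2 control libraries had 106, 151 and 186 CPM, all above day 0 but far apart, and FHL2 libraries had 97.6, 88.8 and 95.6 CPM, which overlapped day 0. The rise in control was 1.65-fold (log2 fold change 0.72, SE 0.15, adjusted p = 0.000943), against 0.091 in FHL2 (SE 0.15, adjusted p = 0.634).

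Junb (ENSMUSG00000052837), the JUN member that can restrain JUN at AP-1 sites, rose in both lines. It had 42.7, 46.8 and 48.6 CPM at day 0 and 108, 153 and 148 CPM at day 2 in control, and 54.1, 50.9 and 42.4 CPM at day 0 and 92.3, 112 and 123 CPM at day 2 in FHL2. The days did not overlap within a line, while the lines overlapped on each day. The rise was 2.96-fold in control (log2 fold change 1.57, SE 0.16, adjusted p = 1.15e-06) and 2.22-fold in FHL2 (1.15, SE 0.15, adjusted p = 1.89e-05). In GENCODE M21, 173 of the 2301 exon bases of Junb lie opposite the peroxiredoxin gene Prdx2, which also rose (log2 fold change 1.26 and 1.64), and 232 of the 3189 exon bases of Jun lie opposite the antisense gene Junos. The library kit keeps strand, but the sources used here do not state the strand setting of the counting. Whether reads of these overlaps were counted for either gene, both or neither is therefore not known.

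Egr1 (ENSMUSG00000038418), the EGR factor most widely induced by serum, was the highest of the 10 at day 0 per kilobase. It had 159, 155 and 181 CPM at day 0 and 249.9, 180 and 212 CPM at day 2 in control, so that the lowest day 2 library lay just below the highest day 0 library. In FHL2 it had 155, 177 and 155 CPM at day 0 and 189, 166 and 138 CPM at day 2, with full overlap. The control difference passed narrowly (log2 fold change 0.38, SE 0.13, adjusted p = 0.0267) and the FHL2 difference did not (0.018, SE 0.13, adjusted p = 0.919). The control call was lost without control day 0 replicate 1 or 2 or control day 2 replicate 1 (adjusted p = 0.0903, 0.103 and 0.124).

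Egr2 (ENSMUSG00000037868, Krox20) went the other way. Control libraries had 13.7, 10.4 and 12.1 CPM at day 0 and 7.17, 5.58 and 4.76 CPM at day 2, and FHL2 libraries had 12.3, 14.0 and 12.6 CPM at day 0 and 4.51, 3.54 and 4.06 CPM at day 2. The days did not overlap in either line. The log2 fold change was -1.04 in control (SE 0.28, adjusted p = 0.0055) and -1.68 in FHL2 (SE 0.29, adjusted p = 0.000170). Its share of the EGR family level per kilobase went from 9.43% to 3.84% in control and from 10.2% to 3.51% in FHL2.

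**Figure D2:**
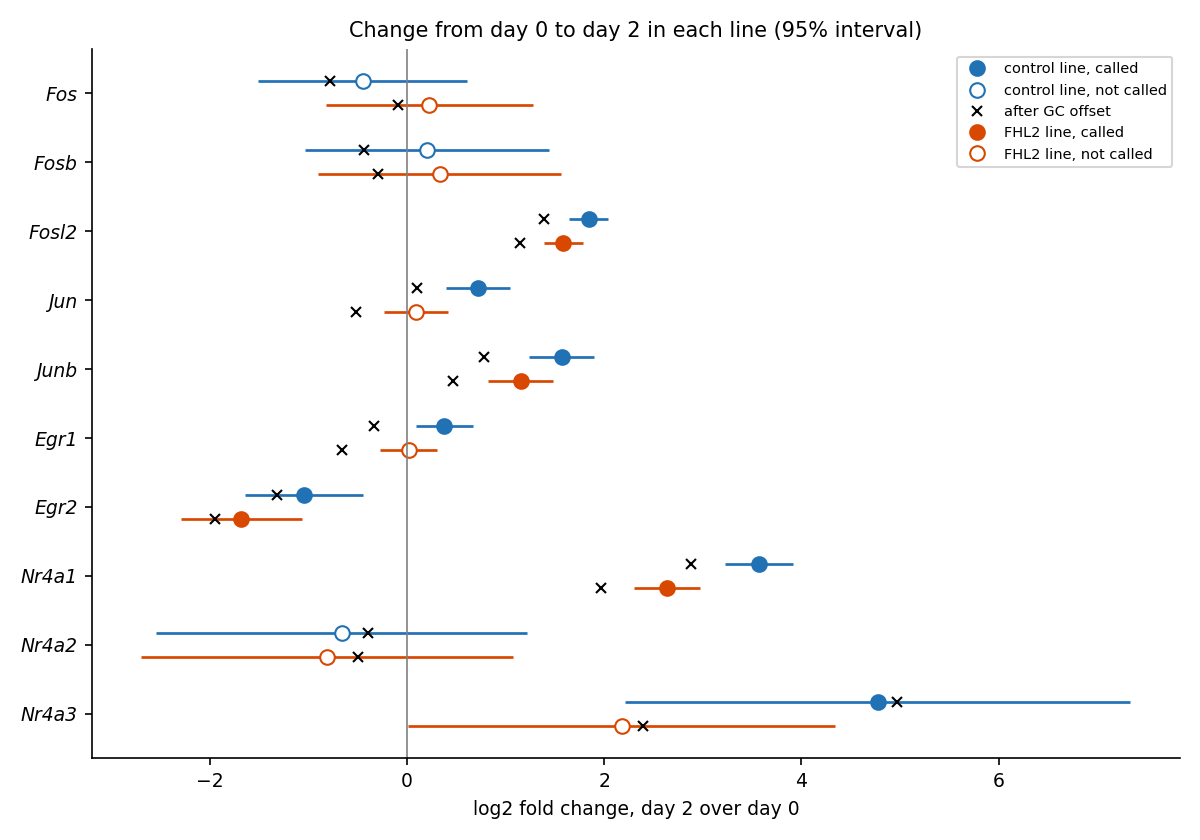
Change with induction (log2, day 2 over day 0) of each gene in the control line (blue) and the FHL2 line (orange), with 95% intervals; filled points were called at an adjusted p under 0.05, and crosses are the estimates with an offset for GC content. Crosses lie to the left of the points for GC-rich genes, and on the other side of 0 for Egr1 and Fosb in both lines and for Jun and Fos in FHL2.

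Base composition moved with the day. An offset for GC content in each library took the genes called between days from 8246 to 5699 in control and from 8087 to 5664 in FHL2. Of the 10 genes, 8 have a GC content above the median of 49.4% over the annotated tested genes, from 51.4% in Egr2 to 62.6% in Junb (98.9th percentile). Nr4a2 (47.9%) and Nr4a3 (48.4%) lie below it. With the offset, the rise of Nr4a1 was 2.88 in control and 1.97 in FHL2, that of Fosl2 1.39 and 1.14 and that of Junb 0.78 and 0.47 on the log2 scale, and Egr2 was at -1.32 and -1.95. All of these passed the test. The rise of Jun in control did not pass after the offset (0.10, adjusted p = 0.647), and Jun was called lower in FHL2 (-0.52, adjusted p = 0.0181). Egr1 was called lower in both lines (-0.33, adjusted p = 0.0496, in control and -0.66, adjusted p = 0.000815, in FHL2). Neither Fos nor Fosb passed, and their values crossed 0, Fosb in both lines (0.20 to -0.43 in control and 0.33 to -0.29 in FHL2) and Fos in FHL2 (0.23 to -0.092). The direction of Egr1 and Fosb in both lines, and of Jun and Fos in FHL2, thus depended on how base composition was treated.

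The order of the genes by level per kilobase changed between days. At day 0 control cells had Egr1 (36.8 ± 3.11 CPM per kilobase), Jun (28.1 ± 0.781), Junb (25.4 ± 1.67), Fosl2 (10.2 ± 0.369), Nr4a1 (4.70 ± 0.925), Egr2 (4.08 ± 0.554), Nr4a2 (2.14 ± 0.039), Fos (1.72 ± 0.321), Fosb (0.879 ± 0.201) and Nr4a3 (0.011 ± 0.012). The FHL2 day 0 order was the same. The neighbours Nr4a1 and Egr2 in control, and Jun and Junb and Nr4a2 and Fos in FHL2, overlapped within 1 SD. At day 2 Junb led in both lines (75.4 ± 13.7 in control, 60.4 ± 8.71 in FHL2). In control Nr4a1 (55.7 ± 3.89), Egr1 (47.8 ± 7.75), Jun (46.4 ± 12.6) and Fosl2 (36.7 ± 2.77) followed, and in FHL2 Egr1 (36.7 ± 5.73), Nr4a1 (35.6 ± 5.36), Jun (29.5 ± 1.43) and Fosl2 (27.99 ± 0.931). From Nr4a1 or Egr1 down to Fosl2 each of these overlapped the next within 1 SD, while Junb did not overlap the gene below it. The other 5 were at or below 1.97 ± 0.414 in control and 1.76 ± 0.374 in FHL2, and their neighbours overlapped. With all annotated exons as the length, Nr4a1 was behind both Egr1 and Jun at day 2 in both lines, where in FHL2 it was behind Egr1 on either length.

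**Figure D3:**
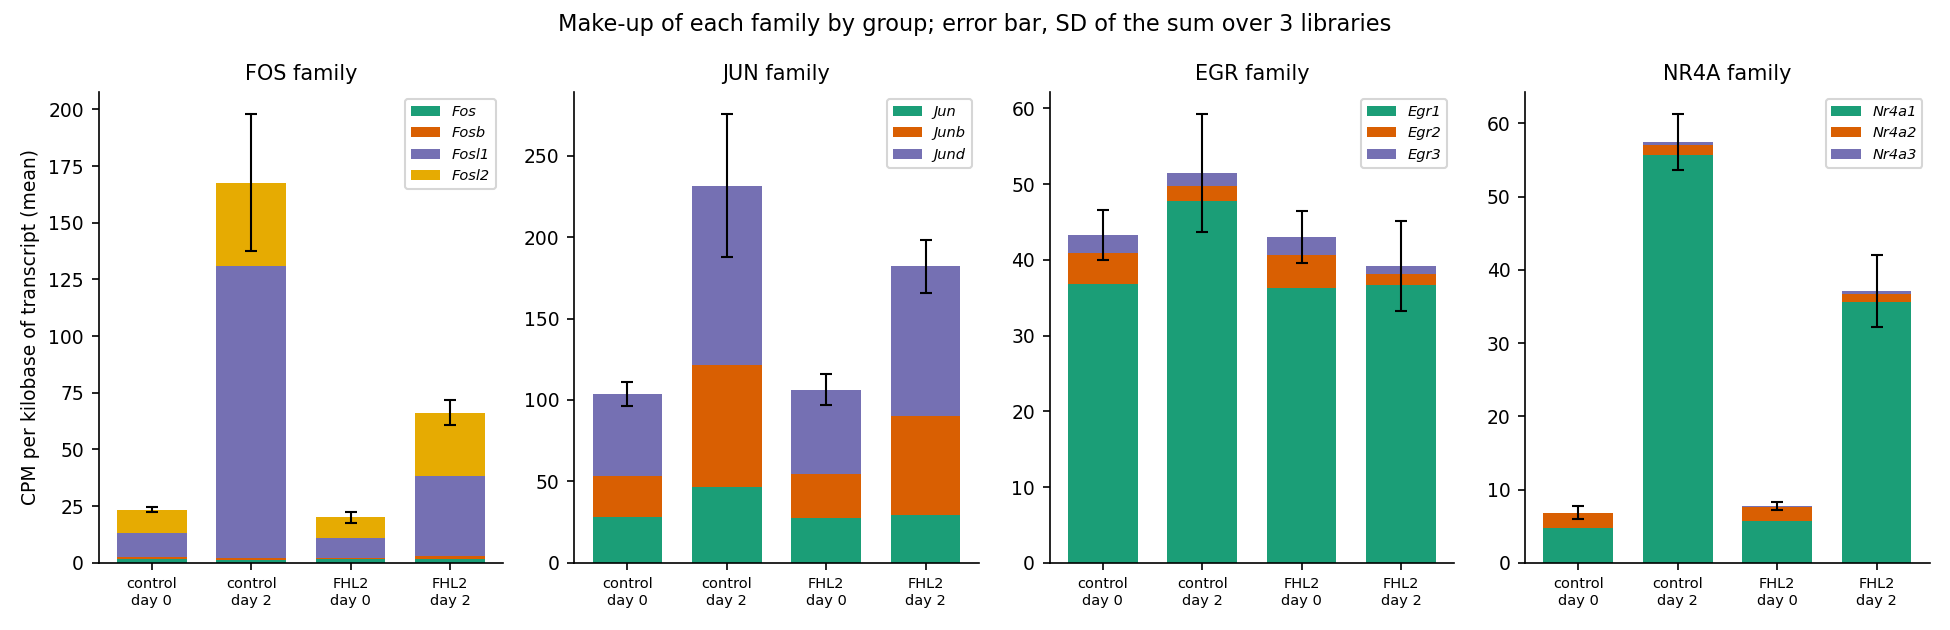
Mean level per kilobase of transcript of the FOS, JUN, EGR and NR4A families in each group, stacked by gene, with the SD of the family sum over 3 libraries as error bar. Fosl1 and Fosl2 held most of the FOS level in every group, and Nr4a1 most of the NR4A level.

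Between the lines, none of the 10 genes was called at day 0, where 0.0208% of all genes were called higher and 0.0277% lower in FHL2. One had an unadjusted edgeR p under 0.05 (Nr4a3, log2 fold change 2.75, 95% interval 0.30 to 5.21), and DESeq2 and limma-voom called 0 as well. Libraries did not overlap for Nr4a3, which was higher in FHL2, and Fosl2, which was lower, against 10.5% of all genes higher without overlap and 11.1% lower. The interval of the day 0 difference was narrow for Fosl2 (-0.33 to 0.062), Egr1 (-0.31 to 0.27), Jun (-0.34 to 0.30) and Junb (-0.23 to 0.42) on the log2 scale. For Nr4a1 it was -0.041 to 0.62.

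At day 2, Fosl2, Jun and Nr4a1 were called lower in FHL2 than in control, and none was called higher, where 1.35% of all genes were called lower and 0.72% higher. Nr4a1 was 1.56-fold lower (log2 fold change -0.65, SE 0.15, edgeR adjusted p = 0.0369), Jun 1.57-fold lower (-0.65, SE 0.15, adjusted p = 0.0420) and Fosl2 1.31-fold lower (-0.39, SE 0.090, adjusted p = 0.0401). The libraries of the lines did not overlap for these 3 nor for Egr2 (4.51, 3.54 and 4.06 against 7.17, 5.58 and 4.76 CPM; log2 fold change -0.54, adjusted p = 0.344), which makes 4 lower and 0 higher, against 7.41% and 7.28% of all genes. Egr1 (-0.38, 95% interval -0.67 to -0.092, adjusted p = 0.155) and Junb (-0.32, -0.64 to 0.005, adjusted p = 0.287) did not pass. The values of Fos (0.48), Fosb (0.016), Nr4a2 (-0.30) and Nr4a3 (0.16) had intervals over 2 log2 units wide.

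These 3 calls sat close to the threshold. When each of the 12 libraries was left out in turn, Nr4a1 stayed called in 3 of the 12 fits, Jun in 2 and Fosl2 in 1, and no fit held more than 1 of the 3. The 3 libraries whose removal kept Nr4a1 were control day 0 replicates 1 and 3 and FHL2 day 2 replicate 3. Jun was kept without control day 2 replicate 1 or FHL2 day 2 replicate 1, and Fosl2 without control day 2 replicate 3. Under the other 11 alternatives Nr4a1 was called in 9, Fosl2 in 7 and Jun in 6, and the direction was lower in all. The main fit takes the spread of a gene from all 12 libraries. Day 0 libraries varied less than day 2 libraries (biological coefficient of variation 0.121 against 0.463). Fitted on the 6 day 2 libraries alone, none of the 3 passed (adjusted p = 0.115 for Nr4a1, 0.220 for Jun and 0.307 for Fosl2). With the replicate number as a block, Nr4a1 alone passed (adjusted p = 0.0251, with 0.0581 for Jun and 0.0603 for Fosl2). Without the 3 libraries of lowest gene detection Fosl2 passed (adjusted p = 0.0309), Nr4a1 (-0.42, adjusted p = 0.173) and Jun (-0.45, adjusted p = 0.103) did not, and Egr1 (-0.67, adjusted p = 0.0327) and Nr4a2 did, again with 1 FHL2 day 2 library. Egr1 also passed without a filter on low counts (-0.38, adjusted p = 0.0487), where Fosl2 did not (adjusted p = 0.0587).

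**Figure D4:**
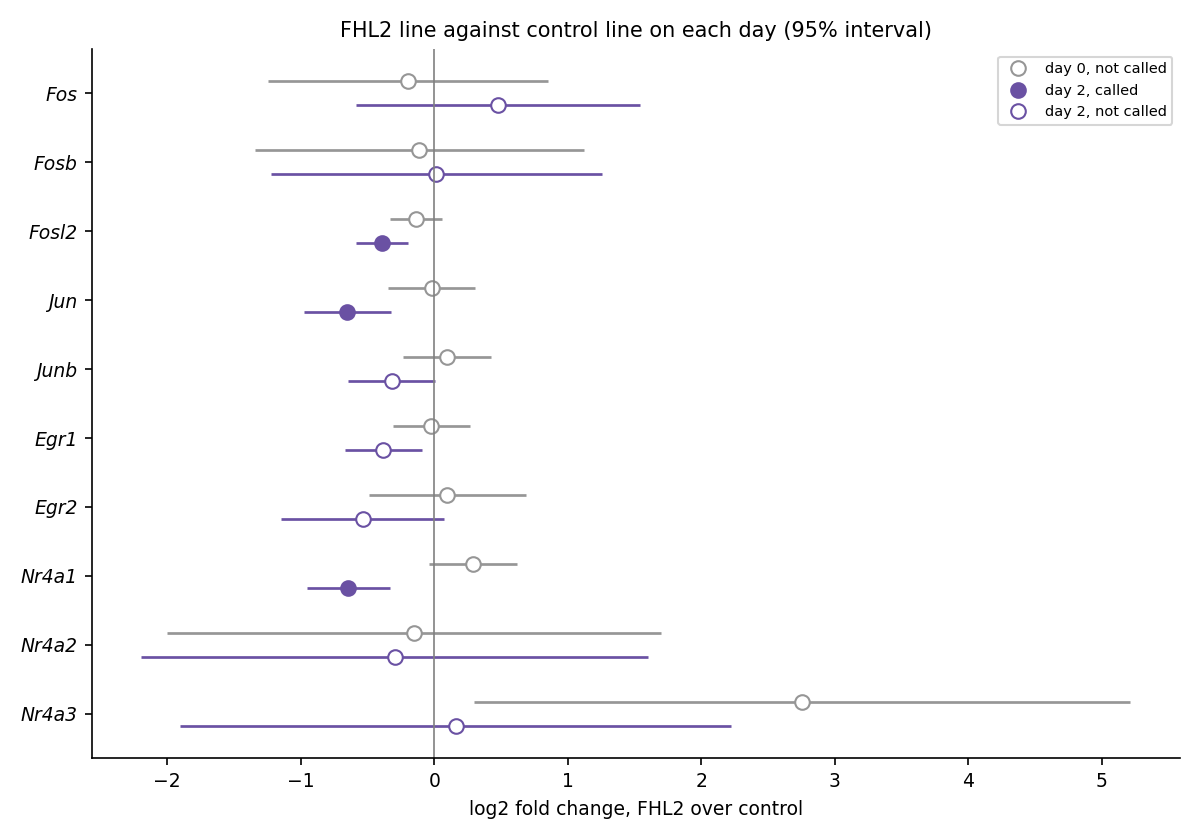
Log2 fold change of FHL2 over control for each gene at day 0 (grey) and day 2 (purple), with 95% intervals; filled points were called at an adjusted p under 0.05. Only the day 2 points of Fosl2, Jun and Nr4a1 are filled, all left of 0.

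Whether the lines responded differently was tested by the interaction, the day 2 difference between the lines minus the day 0 difference. None of the 10 genes passed, where 0% of all genes were called higher and 0.00693% (1 gene) lower. Nr4a1 had -0.93 on the log2 scale (95% interval -1.39 to -0.48, adjusted p = 0.346) and Jun -0.63 (-1.09 to -0.17, adjusted p = 0.592), the only 2 with an unadjusted edgeR p under 0.05. Nr4a1 passed in DESeq2 (-0.93, adjusted p = 0.0103) and without a filter on low counts (-0.94, adjusted p = 0.0235), and limma-voom called 0. Over the 22 alternatives of this comparison its value lay between -1.10 and -0.72, with adjusted p from 0.0103 to 0.945. The smaller rise of Nr4a1 in FHL2 and the absence of a call for Jun, Egr1 and Nr4a3 there are therefore not shown to differ between the lines by the edgeR test.

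Several of the genes followed each other across the 12 libraries, as a description of libraries that fall into 2 days. Pearson's r of log2 CPM was 0.987 between Fosl2 and Nr4a1, 0.980 between Junb and Nr4a1 and 0.964 between Fosl2 and Junb. Egr2 had r of -0.887 with Fosl2, -0.893 with Junb and -0.888 with Nr4a1. Close matches were sought among 9725 other named genes above 5 CPM, leaving out Gm, Rik, pseudogene and clone names. Those closest to Nr4a1 were Efemp2 (r = 0.997), Mmp19 (0.995) and Cavin1 (0.995). Those closest to Fosl2 were Jade2, Vdr and Igfbp4 (0.997 each), and those closest to Junb were Egln2 (0.987), Cebpd (0.986) and Vars (0.986). Hnrnpd (0.988), Ehbp1 (0.986) and Rai14 (0.984) were closest to Egr2. The best matches were looser for Nr4a2 (Ndufaf2, 0.966), Jun (Nol9, 0.945) and Egr1 (Ptprs, 0.934).

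Of the other AP-1 and related bZIP genes, 11 of 13 could be tested. In control 4 rose and 2 fell, and in FHL2 3 rose and 2 fell (list medians -0.043 and 0.011). Beside this and each list below stand the shares over all tested genes. These were 26.3% called higher and 30.8% lower in control, and 25.8% and 30.2% in FHL2. Fosl1, which encodes FRA-1, rose from 19.9 ± 2.70 to 239.9 ± 51.8 CPM in control (log2 fold change 3.59, adjusted p = 4.21e-09) and from 15.9 ± 2.58 to 66.1 ± 10.9 CPM in FHL2 (2.06, adjusted p = 4.81e-07). At day 2 it was lower in FHL2 by -1.86 on the log2 scale (SE 0.18, adjusted p = 0.000198), and its interaction was -1.53 (adjusted p = 0.0732). Per kilobase Fosl1 went from 45.3% to 76.4% of the FOS family in control and from 42.1% to 53.3% in FHL2, while Fosl2 went from 43.6% to 22.2% and from 46.6% to 42.5%. The family sum went from 23.5 ± 1.01 to 168 ± 30.1 CPM per kilobase in control and from 20.2 ± 2.45 to 66.2 ± 5.59 in FHL2. Atf2, a cAMP- and stress-regulated partner of JUN, fell (-1.66 in control and -1.87 in FHL2), a call lost in FHL2 and turned in sign in control with the GC offset (0.19, adjusted p = 0.459).

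Among the other EGR factors, the NAB co-repressors and the serum response factor with its partners, 4 of 9 tested genes rose and 3 fell in control, and 3 rose and 4 fell in FHL2. Nab1, a co-repressor of EGR1 and EGR2, fell (log2 fold change -1.95 in control and -2.37 in FHL2, the order used from here on). Mrtfa, an actin-regulated partner of the serum response factor, rose (1.502 and 1.39), and Elk4, an ERK-regulated partner, fell (-1.03 and -1.09). At day 2 Nab2, an EGR target and co-repressor, was lower in FHL2 (254 ± 7.74 against 330.4 ± 7.28 CPM, log2 fold change -0.38, adjusted p = 0.0216). That call was lost in the fit of the 6 day 2 libraries alone (adjusted p = 0.270) and without control day 2 replicate 1 or 2 or FHL2 day 2 replicate 1 or 2 (adjusted p from 0.0585 to 0.0826).

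Of 19 other immediate early genes tested, 7 rose and 5 fell in control and 4 rose and 7 fell in FHL2. Ptgs2, the inducible prostaglandin synthase, fell (-2.84 and -2.86), as did the zinc finger gene Klf6 (-2.66 and -2.03), and Csrnp1 rose (2.05 and 2.33). The control call of Ptgs2 was lost with the GC offset (-0.997, adjusted p = 0.0501). Among the day 2 libraries Rhob, a growth factor-induced small GTPase, was lower in FHL2 than in control, with a log2 fold change of -0.80 (SE 0.16, adjusted p = 0.0226). It did not pass in the fit of the day 2 libraries alone (adjusted p = 0.112), when the 3 libraries of lowest gene detection were dropped (-0.56, adjusted p = 0.0923), or without control day 2 replicate 2 or 3 or FHL2 day 2 replicate 2 (0.0568, 0.0504 and 0.0543).

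Upstream of these genes, the ERK kinases and their inhibitors were called in both directions. So were all tested genes, with 26.3% higher and 30.8% lower in control and 25.8% and 30.2% in FHL2. Of 11 ERK pathway kinases 5 rose and 3 fell in each line, with Braf (-1.75 and -1.92) and the S6 kinase gene Rps6ka3 (-1.94 and -1.90) lower and Mapk3 higher (1.01 and 1.03). With the GC offset the falls of Braf and Rps6ka3 did not pass, and with the GC and length offset neither did the rise of Mapk3 in control (0.18, adjusted p = 0.1097). Of 14 MAP kinase phosphatases and feedback inhibitors 3 rose and 4 fell in each line. Dusp1, a MAP kinase phosphatase that is also a glucocorticoid-induced gene, went from 11.3 ± 1.51 to 126 ± 29.3 CPM in control and from 10.4 ± 1.19 to 92.5 ± 15.1 CPM in FHL2 (3.47 and 3.16). Spry1 rose (1.18 and 1.57), and Spred1 fell (-2.34 and -1.72), the latter lost with the GC offset (-0.20, adjusted p = 0.357).

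On the cAMP side, 5 of 16 kinase, CREB and co-activator genes rose and 6 fell in control, and 3 rose and 8 fell in FHL2. Creb1 went from 49.96 ± 11.4 to 8.78 ± 2.53 CPM in control and from 43.5 ± 3.79 to 9.70 ± 3.10 CPM in FHL2 (-2.50 and -2.17), and the FHL2 call was lost with the GC offset (-0.41, adjusted p = 0.103) and the control call with the GC and length offset (-0.28, adjusted p = 0.206). Of 9 other known CREB target genes 5 rose and 1 fell in control and 6 rose and 1 fell in FHL2, with medians of 2.14 and 1.81. The gene that fell was Ppargc1a in both lines (-2.11 and -2.11). Per1, a clock gene that glucocorticoids also induce, rose by 3.13 and 2.83, and Rgs2, an inhibitor of G protein signalling, by 3.02 and 2.76. Of 10 cAMP phosphodiesterases 2 rose and 3 fell in control and 3 rose and 1 fell in FHL2. Pde4b, which stands in both lists, rose by 3.04 and 2.87, and Pde4d, also in both, by 2.84 and 2.19. Pde7a fell (-1.07 and -0.98), and with the GC offset its values were 0.11 and 0.096, neither of which passed. Both retinoid X receptors tested rose, Rxra by 2.22 and 2.08 and Rxrb by 1.25 and 1.20. At day 2 none of the ERK, phosphatase, cAMP, phosphodiesterase or receptor genes was called between the lines, and no gene of these lists was called at day 0.

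**Figure D5:**
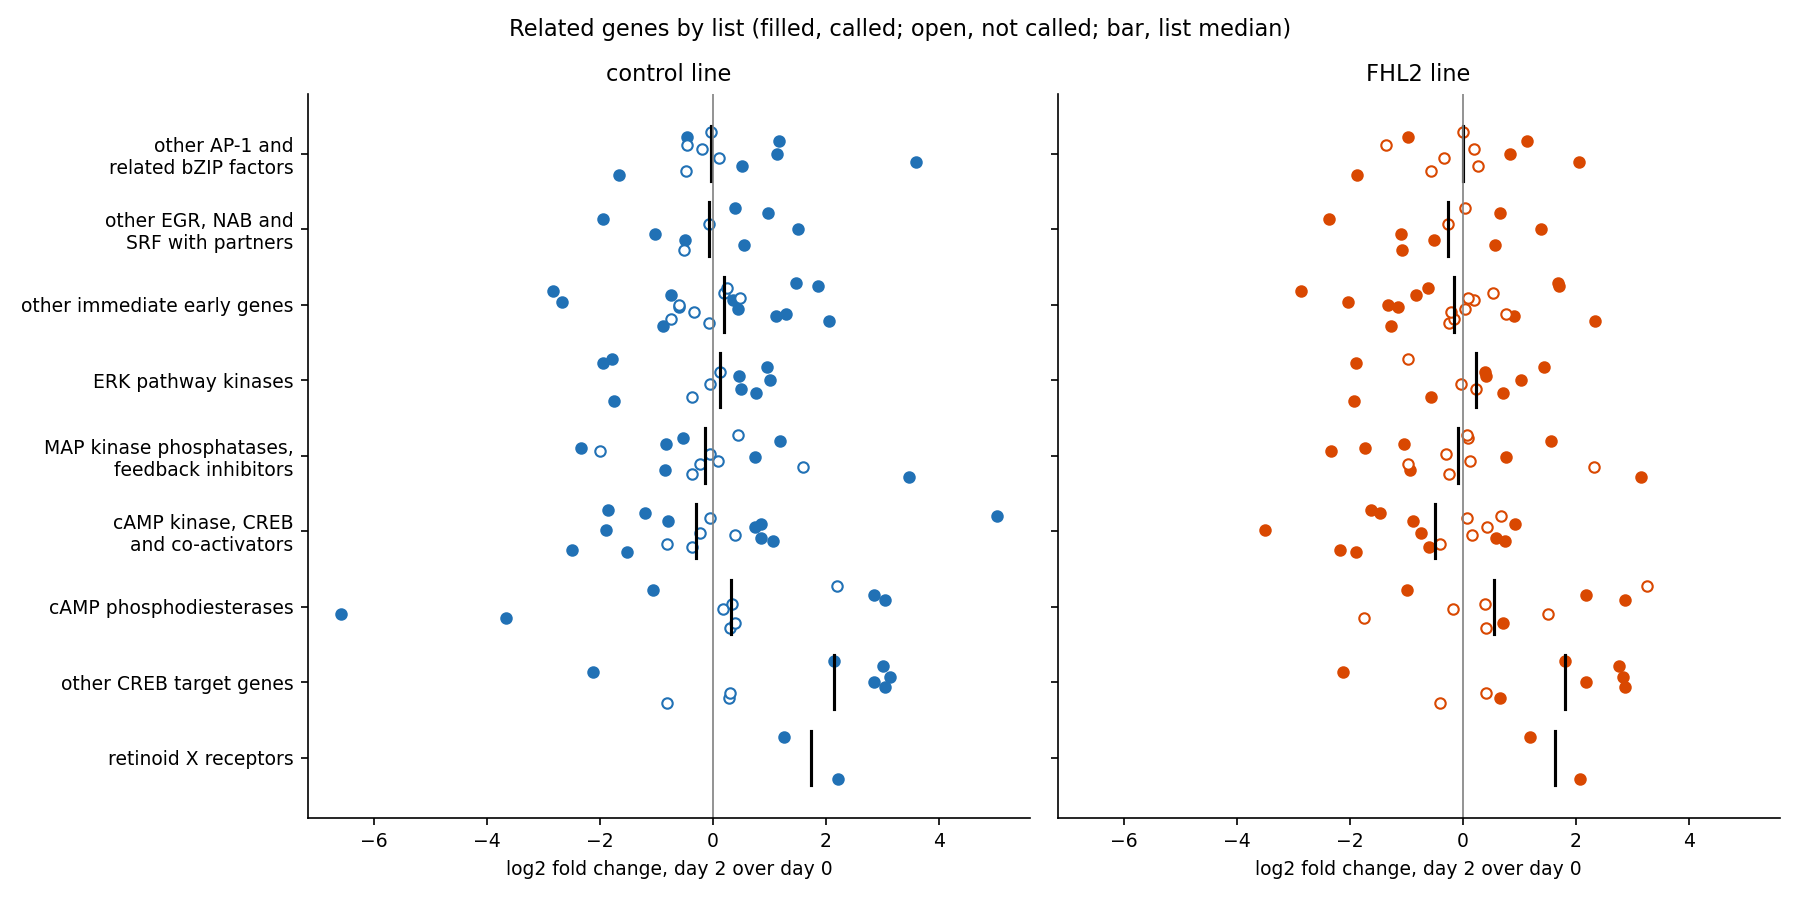
Change with induction (log2, day 2 over day 0) of each tested gene in 9 lists of related genes, in the control line (left) and the FHL2 line (right); filled points were called at an adjusted p under 0.05 and bars are list medians. The CREB target list had a median of 2.14 in control and 1.81 in FHL2. The list of retinoid X receptors, with 2 tested genes, had 1.74 and 1.64. The other medians lay between -0.50 and 0.56.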

How the data were processed

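The deposited table holds raw counts per Ensembl gene, 1 column for each of 12 libraries. Per the submitters' processing notes the build was GRCm39 and the tools included HISAT2 2.2.1, Trimmomatic 0.39, HTSeq 0.11.0, limma, FastQC 0.11.9 and R 4.1.0. The sources used here do not state their order, settings, annotation release or strand. Genes were tested on the counts with edgeR 4.0.16 (R 4.3.3): filterByExpr by group, TMM scaling, and a quasi-likelihood fit with 1 mean per group over all 12 libraries, 2-sided, Benjamini-Hochberg adjusted over 14435 genes, called under 0.05. Depth was 10047708 to 21872139 counts. Alternatives were upper-quartile or RLE scaling, no filter, a minimum of 1 CPM in 3 libraries, limma-voom (limma 3.58.1), DESeq2 1.42.0, only the groups compared, a replicate block, offsets for GC content with and without length (GENCODE M21, 99.8% of tested genes), leaving out the 3 day 2 libraries with the fewest genes, and leaving out each library. The script was tested on simulated counts for control day 2 against day 0 only, which does not cover the comparisons between the lines. No 2 libraries of a group were duplicates.

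The 10 genes and the lists were chosen with earlier results of these data known. All 10 genes were named. Each list of related genes named up to 3 called genes per comparison with the largest change and a mean of 5 CPM or more, not all of which are printed. Ppargc1a was named beside them as the CREB target that fell. For each of the 10 above 5 CPM the 3 best correlated genes above 5 CPM were found by Pearson's r of log2 CPM (prior count 2). Genes without a symbol or with a Gm, Rik, pseudogene or clone name were left out of that search. Per-kilobase levels use the longest GENCODE M21 transcript. Where all counts of a library were 0, the limit is 3 counts. Start site windows came from RefSeq, and Egr1 was left out of the search of these windows.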

Additional observations from a re-analysis of the deposited data

How the results depend on the processing

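The rises of Fosl2, Junb and Nr4a1 and the fall of Egr2 kept their direction and their call in both lines under all 23 alternatives, as did the rise of Nr4a3 in control. The GC offset and the GC and length offset turned the sign of Egr1 between days (-0.33 and -0.16 in control, -0.66 and -0.45 in FHL2) and of Jun in FHL2 (-0.52 and -0.50). The -0.16 did not pass, while the other values given here for Egr1 and Jun did. They also turned the sign of the uncalled values of Fosb (-0.43 and -0.34 in control, -0.29 and -0.18 in FHL2) and Fos in FHL2 (-0.092 and -0.24). In control both offsets turned the sign of Atf2 (0.19 and 0.19), Nfat5 (-1.22 to 0.18 and 0.56), Pde7a (-1.07 to 0.11 and 0.29) and Pkia (-1.90 to 0.24 and 0.17). The length form alone turned Rps6ka3 in control (0.054) and Nfat5 in FHL2 (-1.38 to 0.30), and both turned Pde7a in FHL2 (0.096 and 0.33). Among these offset values only that of Nfat5 in control with GC and length passed (0.56, edgeR adjusted p = 0.00554). The offsets moved the median of all genes by up to 0.14, no filter by up to -0.23 and limma-voom by up to -0.14.

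The 3 day 2 calls between the lines became 0 with only the groups compared, 1 with the replicate block, and 0 to 1 without any one library. They became 2 with limma-voom, which lost Jun (adjusted p = 0.0521), and 2 with either offset. The GC offset lost Jun (edgeR adjusted p = 0.0506), and the GC and length offset lost Fosl2 (-0.24, edgeR adjusted p = 0.165). Without the 3 libraries of lowest gene detection Nr4a1 and Jun were lost and Egr1 and Nr4a2 gained, and with no filter Fosl2 was lost and Egr1 gained. The interaction gained 1 call (Nr4a1) with no filter and 1 with DESeq2. The replicate block changed no other call among the 10 genes. Deviations of same-numbered libraries from their group means gave mixed values. Of 18 pairs 4 correlated above 0.1 (range -0.14 to 0.27), and the own number was the best of the 3 libraries of the other group in 10. Control day 0 and FHL2 day 0 gave 0.26 for replicate 1, -0.14 for replicate 2 and 0.27 for replicate 3. The check thus neither shows nor excludes a pairing.

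Over all genes, calls between the lines at day 0 went from 7 to 69 with no filter, 93 with DESeq2, 18 with limma-voom, 246 with only the groups compared, 11 with the block, 14 and 24 with the offsets and 135 with the 3 libraries of lowest gene detection dropped. At day 2 they went from 299 to 846 with no filter, 997 with DESeq2, 39 with only the groups compared and 1606 without those libraries. Interaction calls went from 1 to 2 with upper-quartile scaling, 91 with no filter, 73 with DESeq2, 2 and 4 with the offsets and 243 without those libraries. Leaving out any one library gave 1 to 10 calls at day 0, 146 to 404 at day 2 and 0 to 6 for the interaction. The causes were not tested. The day 2 spread limits what the FHL2 comparison can show, and low counts limit Nr4a3, Nr4a2, Fos and Fosb.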
